A study of Mus musculus with 3 samples.

Results

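The genes described here encode the protein subunits of the mitochondrial respiratory chain and of ATP synthase, with the assembly factors that share their name stems. They were chosen by name only, as array probes whose gene name starts with Ndufa, Ndufb, Ndufc, Ndufs, Ndufv, Sdha to Sdhd, Uqcr, Cox4i, Cox5, Cox6, Cox7, Cox8, Cyc1, Cycs or Atp5. The rule found 100 of the 24765 genes on the array that carry a RefSeq symbol, measured by 157 probes. A probe well above background was found for 98 of them on 1 or more arrays and for 97 on all 3 arrays. Cox8b and Cox8c were above background on none, and Ndufa4l2 only with the empty vector.

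RNA came from Hepa1c1c7, a mouse hepatoma cell line, transfected with an empty vector (Empty), a Cd74 vector or a Tmem54 vector, each measured on 1 Agilent array of 1 colour from 100 ng of RNA. Cd74 encodes the invariant chain of MHC class II molecules, and Tmem54 encodes a transmembrane protein. The vector backbones, the time after transfection and whether the cells were a selected pool or a clone are not given in the sources used here. Because each vector has a single array, no test was possible, and each difference compares 2 arrays and not 2 conditions. Both comparisons with Empty use the same Empty array, so a deviation of that array enters both.

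The respiratory chain passes electrons from NADH and succinate through complexes I to IV to oxygen and pumps protons across the inner mitochondrial membrane, and complex V uses the proton gradient to make ATP. Most subunits are encoded in the nucleus and expressed in nearly every cell, while the mitochondrial genome encodes a small core. Several small subunits of complex IV, which is cytochrome c oxidase, come as pairs of a widely expressed form and a form restricted to certain tissues, such as heart and skeletal muscle for Cox6a2 and Cox7a1, lung for Cox4i2 and testis for Cox6b2 and Cox7b2.

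The vectors were visible in the arrays. The Cd74 probe had a processed signal of 26.77 with Empty, 10860 with Cd74 and 22.44 with Tmem54, and the Tmem54 probe was above background only on the Tmem54 array, at 19750. Processed signal is the scanner's intensity after background and trend correction, and a difference is given on the log2 scale after subtracting each array's 75th percentile. Between 55.7% and 57.2% of the spots other than controls were well above background per array, with none saturated (0 spots). Of 14 hepatocyte markers, 8 were above background, among them Alb, Afp, Trf, Krt8 and Krt18. Apoa1, Apob, Ttr, Hnf4a, Fgb and Ahsg were not above background on any array. The 8 had a median difference from Empty of -0.12 with Cd74, 6 of them below 0, and 0.06 with Tmem54. Alb was the widest, at -0.87 with Cd74 and 0.83 with Tmem54. Afp was at 0.02 and 0.05, and Krt18 at -0.02 and 0.02.

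The probes of the isoform pairs that the results turn on are shown here. Probes were compared with probes and not with transcripts, so whether a probe binds its partner's transcript was not tested. Capitals mark the longest run that both probes of a pair share. Coordinates are those the array files give on build mm9. The Cox6a1 probe lies at chr5:115795726-115795785 on the minus strand, the Cox6a2 probe at chr7:135349160-135349219 on the minus strand, the Cox7b probe at chrX:103217214-103217271 on the plus strand and the Cox7b2 probe at chr5:71834167-71834226 on the minus strand. The sequences are as follows.
Cox6a1: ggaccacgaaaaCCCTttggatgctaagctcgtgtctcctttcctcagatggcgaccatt
Cox6a2: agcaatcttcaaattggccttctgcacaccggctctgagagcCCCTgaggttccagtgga
Cox7b: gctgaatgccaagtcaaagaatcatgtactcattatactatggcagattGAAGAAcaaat
Cox7b2: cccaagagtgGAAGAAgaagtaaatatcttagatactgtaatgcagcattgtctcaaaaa

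The longest shared run was 4 bases for Cox6a1 and Cox6a2 and 6 bases for Cox7b and Cox7b2, out of 60 bases per probe. It was 4 bases for Cox7a2 and Cox7a1, 6 for both the Cox4i and the Cox6b pair and 7 for Ndufa4 and Ndufa4l2. Of the 56604 other probes on the array, 0 shared a run of 15 bases with the Cox6a2 probe on either strand. These comparisons cover probe sequences only, and binding to transcripts was not tested.

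Only a few members differed by 2-fold or more between arrays, and all of them were tissue isoforms of complex IV. Between Cd74 and Empty, 1 of the 98 members compared was at least 2-fold higher, Cox6a2, and 1 was at least 2-fold lower, Cox7b2, against 2.42% of all 15589 genes compared in either direction (1.03% higher and 1.39% lower). Between Tmem54 and Empty, 0 members were at least 2-fold higher and 1 was at least 2-fold lower, again Cox6a2, against 1.34% of 15480 genes (0.53% higher and 0.807% lower). Between Cd74 and Tmem54, Cox6a2 was higher and Cox7b2 lower among 97 members, against 3.34% of 15382 genes (1.64% higher and 1.69% lower). These shares of 2-fold members are close to those over all genes.

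The other members were packed closely around a small common offset. In Cd74 minus Empty, 87 of 98 members lay within 0.2 of 0, or 88.8%, against 60.0% of all genes compared. In Tmem54 minus Empty, 93 of 98 did, or 94.9%, against 80.2%. The robust SD of the members (scaled from the median absolute deviation) was 0.08 with Cd74 and 0.049 with Tmem54, against 0.229 and 0.112 over all genes. Bright genes spread less than dim ones on these arrays, and most members are bright, so the spread is given again below by brightness.

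**Figure D1:**
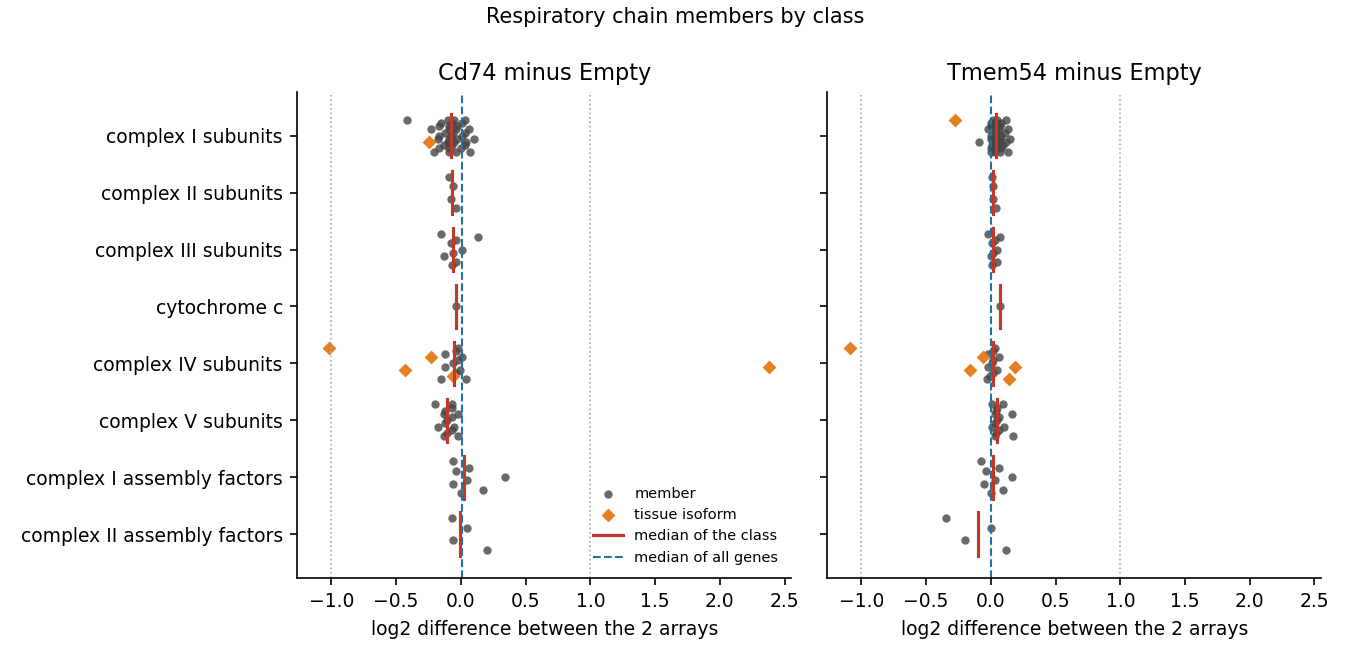
Log2 difference of each member between the Cd74 and Empty arrays (left) and the Tmem54 and Empty arrays (right), by class, with 1 array per vector. Points are genes, diamonds are tissue isoforms, red bars are class medians, the dashed line is the median of all genes and dotted lines mark 2-fold; Cox6a2 at 2.38 and Cox7b2 at -1.02 (left) and Cox6a2 at -1.09 (right) are the members beyond the dotted lines.

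The 77 subunits other than tissue isoforms, cytochrome c included, were slightly lower on the Cd74 array and slightly higher on the Tmem54 array than on the Empty array. In Cd74 minus Empty, 64 were below 0 and 13 above, with a median of -0.069 and a range from -0.42 for Ndufv3 to 0.13 for Uqcrq. The median of all genes in that comparison was 0.012, and 47.6% of them were below 0. In Tmem54 minus Empty, 66 of the 77 were above 0 and 11 below, with a median of 0.034 and a range from -0.09 for Ndufs3 to 0.17 for Atp5l, against -0.002 for all genes and 49.0% above 0. In Cd74 minus Tmem54, 68 of the 77 were below 0, with a median of -0.102 against 0.026 for all genes. Set against the median of all genes, which does not depend on how an array is centred, 68 of the 77 were lower with Cd74 and 68 of the 77 higher with Tmem54. That median depends on which genes are compared. Without a filter on dim probes it was 0.09 with Cd74 and 0.034 with Tmem54 over 24764 genes, and 75 of the 77 then lay below it with Cd74, but only 39 of the 77 above it with Tmem54.

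For a single gene, the scanner software's model assigns a median error of 0.20 to a difference, and no replicate gives an error for the median of the 77. The same sign was seen under other scalings, with a changed count. Under quantile normalization, chosen after seeing the data, 56 of the 77 were below 0 with Cd74, with a median of -0.05, and 58 were above 0 with Tmem54, with a median of 0.027. Genes of one array are not independent, so the counts describe these arrays only.

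Brightness was set beside the offset, with the genes above background on all 3 arrays split into 5 equal classes by mean signal. The brightest class held 75 of the 77 subunits, and within it subunits and other genes were not matched by brightness. Over the 2887 genes of that class, the median was 0.007 in Cd74 minus Empty, with 47.7% below 0. For its 75 subunits the median was -0.067, with 62 below 0. In Tmem54 minus Empty the median of the class was 0.011 and that of its subunits 0.035, with 65 above 0. The robust SD in that class was 0.147 over all genes and 0.064 over the subunits with Cd74, and 0.058 and 0.038 with Tmem54, while in the dimmest class it was 0.337 and 0.276 over all genes.

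**Figure D2:**
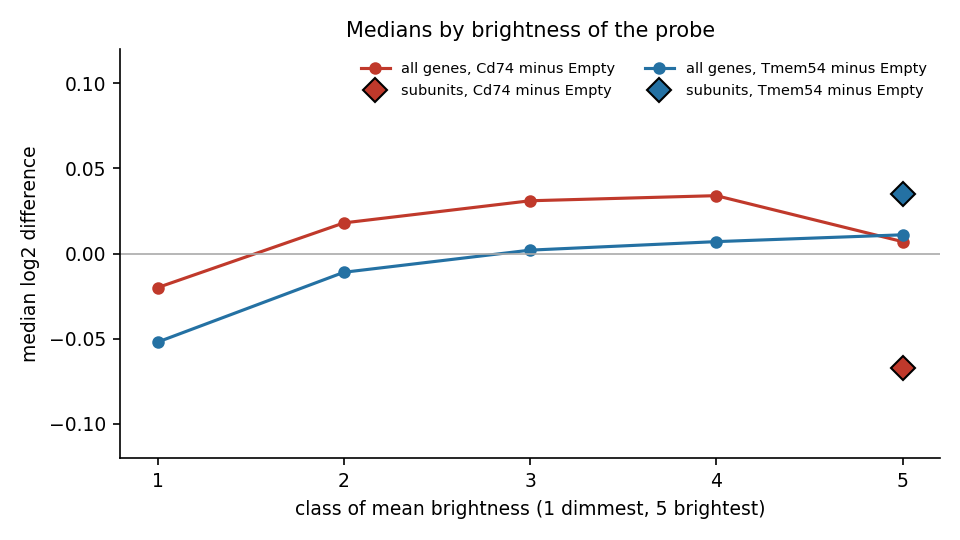
Median log2 difference (vertical axis) of all genes in 5 classes of mean brightness (circles, horizontal axis from dimmest to brightest) and of the respiratory chain subunits in the brightest class (diamonds), for Cd74 minus Empty and Tmem54 minus Empty. The subunit medians of -0.067 and 0.035 lie farther from 0 than the medians of all genes in the same class, 0.007 and 0.011. Within the class, genes were not matched by brightness.

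Complex I, NADH dehydrogenase, is the entry point of electrons from NADH and had the most members, 38 names that include Ndufa4 and its paralog Ndufa4l2. Ndufa4 is now regarded as a subunit of complex IV. The median over complex I was -0.075 in Cd74 minus Empty, with 29 of 38 below 0, and 0.04 in Tmem54 minus Empty, with 32 of 38 above 0. None of the 37 measured on all 3 arrays reached 2-fold in any comparison, and Ndufa4l2, which had only bounds, is described with the isoforms.

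Ndufv3, an accessory subunit of the NADH-oxidising module, had the lowest complex I value on the Cd74 array. Its processed signal was 15700 with Empty, 11200 with Cd74 and 17600 with Tmem54. The difference was -0.42 for Cd74 minus Empty and 0.15 for Tmem54 minus Empty, with a model error of 0.20 each. A further Ndufv3 probe gave -0.19 for Cd74 minus Tmem54 where the brightest probe gave -0.57. For Cd74 minus Empty it gave -0.22, and for Tmem54 minus Empty -0.03. The probes of this gene thus disagree in size, and in sign for Tmem54 minus Empty.

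Ndufa3, another accessory subunit, was at -0.23 with Cd74 and 0.09 with Tmem54, from signals of 27960, 22850 and 30060 in the order Empty, Cd74 and Tmem54. Ndufa11 was at -0.21 and Ndufv2, a core iron-sulfur subunit, at -0.18 with Cd74. At the other end, Ndufb6 was at 0.10 and Ndufs7, a core subunit that carries an iron-sulfur cluster, at 0.07 with Cd74. The catalytic core subunits did not share one sign, since Ndufv1 was at 0.03, Ndufs1 at -0.09 and Ndufs8 at -0.15. With Tmem54, Ndufb11 at 0.13 followed Ndufv3 at the upper end, and Ndufs3 at -0.09 and Ndufa8 at -0.02 were lowest among the members measured on all 3 arrays.

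Complex II, succinate dehydrogenase, links the tricarboxylic acid cycle to the chain, and all of its subunits are encoded in the nucleus. Its 4 subunits had nearly the same differences. With Cd74 they were at -0.09 for Sdha, the flavoprotein, -0.04 for Sdhb, the iron-sulfur subunit, and -0.08 and -0.06 for the membrane anchors Sdhc and Sdhd. With Tmem54 they lay between 0.01 for Sdha and 0.04 for Sdhd.

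Complex III, the cytochrome bc1 complex, carries electrons from ubiquinol to cytochrome c. Its 9 members had a median of -0.061 with Cd74 and 0.021 with Tmem54. Uqcrh, the hinge protein, was lowest with Cd74 at -0.15, from signals of 52110 with Empty, 44920 with Cd74 and 53320 with Tmem54, followed by Uqcr11 at -0.13. Uqcrq, a small subunit near the cytochrome b core, was the highest of the 77 subunits with Cd74 at 0.13, from signals of 83590, 87220 and 83290 in the same order. The core proteins Uqcrc1 and Uqcrc2 were at 0.01 and -0.04, and the Rieske protein Uqcrfs1 at -0.08. Cycs, the somatic cytochrome c, was at -0.04 with Cd74 and 0.07 with Tmem54, and its testis counterpart Cyct was not above background on any array.

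Complex V, ATP synthase, showed the same sign in every subunit in each comparison with Empty. All 15 subunits were below 0 with Cd74, with a median of -0.11 and a range from -0.20 for Atp5c1 to -0.02 for Atp5b. All 15 were above 0 with Tmem54, with a median of 0.047 and a range from 0.01 for Atp5f1 to 0.17 for Atp5l. Under quantile normalization these counts were 14 of 15 in both comparisons, and with the 75th percentile of detected probes 14 of 15 with Tmem54. With the next-brightest probe, 9 of 10 were below 0 with Cd74 and 7 of 10 above 0 with Tmem54. With the mean of all detected probes, 13 of 15 were above 0 with Tmem54. Without a filter on dim probes, 10 of 15 lay above the median of all genes with Tmem54.

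Atp5c1, the gamma subunit of the rotating stalk, had signals of 41040 with Empty, 34170 with Cd74 and 44290 with Tmem54. Atp5a1, the alpha subunit of the catalytic head, had 70020, 61020 and 78830 in the same order, or -0.13 with Cd74 and 0.16 with Tmem54. Atp5b, the catalytic beta subunit, had 222000, 208800 and 227900. The 75th percentile of all signals ran in the same order, at 686.8, 656.4 and 692.7, and after scaling to it Atp5b was at -0.02 with Cd74 and 0.03 with Tmem54.

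The 3 genes for the identical c subunit of the membrane ring, which differ in their import sequences, had the same order of arrays by their brightest probes. Atp5g1 was at -0.18 with Cd74 and 0.06 with Tmem54, Atp5g2 at -0.11 and 0.04, and Atp5g3 at -0.07 and 0.03. The Atp5g2 probe is printed 10 times per array and shows the precision within an array. Its spots ranged from 121900 to 137500 with Empty (median 129100, 9 spots used), from 106800 to 125700 with Cd74 (median 114200, 10 spots) and from 122500 to 146600 with Tmem54 (median 135200, 10 spots). The SD between these spots was 0.064, 0.08 and 0.084 on the log2 scale, so the spots of the arrays overlap, and they are repeats within 1 sample of RNA.

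Complex IV passes the electrons to oxygen and had 18 members, of which 11 were not tissue isoforms. These 11 had a median of -0.035 with Cd74, from -0.15 for Cox8a to 0.04 for Cox7c, and of 0.019 with Tmem54. With Cd74, 9 of the 11 were below 0 and with Tmem54 7 were above 0. Cox8a had signals of 100500 with Empty, 86450 with Cd74 and 105300 with Tmem54. Cox5a and Cox5b, a pair of small matrix-side subunits, were at -0.01 and -0.02 with Cd74.

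Of the tissue isoforms of complex IV, Cox6a2, Cox7b2 and Cox7a1 had the widest differences between arrays, in directions that were not shared, while Cox6b2 and Cox4i2 stayed within 0.25 of 0. Signals of different probes are not compared here, since probes differ in efficiency, and only differences between arrays within a gene are read.

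Cox6a2, the heart and skeletal muscle form of subunit VIa, had signals of 91.09 with Empty, 453.6 with Cd74 and 43.02 with Tmem54, and was well above background on all 3 arrays. It was 5.21-fold higher with Cd74 than with Empty (2.38 on the log2 scale, model error 0.21), 2.14-fold lower with Tmem54 than with Empty (-1.09, model error 0.23) and 11.1-fold higher with Cd74 than with Tmem54. The lower value with Tmem54 was not 2-fold under another background correction (-0.56 with normexp), and the higher value with Cd74 was 1.82 there. The array has 1 probe for the gene, so no further probe bears on it. Its partner Cox6a1 had signals of 180900, 170200 and 184800 in the same order, or differences of -0.02 and 0.02.

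Cox7b2, the testis form of subunit VIIb, had signals of 315.7 with Empty, 149.1 with Cd74 and 351.6 with Tmem54. It was 2.02-fold lower with Cd74 than with Empty (-1.02, model error 0.21), just past the 2-fold line, and -0.80 with normexp, short of it. With Tmem54 it was at 0.14. Its partner Cox7b, on the X chromosome, was at 0.01 with Cd74 and -0.02 with Tmem54, from signals of 34070, 32720 and 33900. The member next below the 2-fold line with Cd74 was Cox7a1.

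Cox7a1, the heart and muscle form of subunit VIIa, had signals of 329.4 with Empty, 234.3 with Cd74 and 378.9 with Tmem54, or -0.43 with Cd74 and 0.19 with Tmem54. Its partners differed less, with Cox7a2 at -0.06 and 0.02, and Cox7a2l, which takes part in the assembly of respiratory supercomplexes, at -0.04 and 0.06. Cox6a2 was thus highest on the Cd74 array, while Cox7a1 and Cox7b2 were lowest there.

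Cox4i2, the lung and hypoxia-responsive form of subunit IV, was level across the arrays at 475.8, 434.8 and 461.1, or -0.06 in each comparison with Empty. Its partner Cox4i1 was at -0.04 and 0.01. Cox6b2, the testis form of subunit VIb, had 109.6, 89.58 and 98.71, or -0.23 and -0.16, and Cox6b1 was at -0.12 and -0.03. Neither Cox8b, the heart and muscle form of subunit VIII, nor Cox8c, its testis form, was above background, with signals between 3.103 and 3.519. Cox8a was at -0.15 with Cd74 and 0.05 with Tmem54.

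Ndufa4l2, a paralog of Ndufa4 that is induced by hypoxia, had a signal of 16.79 with Empty, near the lowest signal well above background of 13.1 on that array. It was 10.04 with Cd74 and 4.273 with Tmem54, both not well above background. It was therefore at least 1.19-fold lower with Cd74 and at least 1.22-fold lower with Tmem54, bounds set by the detection limit. Ndufa4 had 26060, 23200 and 28560, or -0.10 and 0.12.

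**Figure D3:**
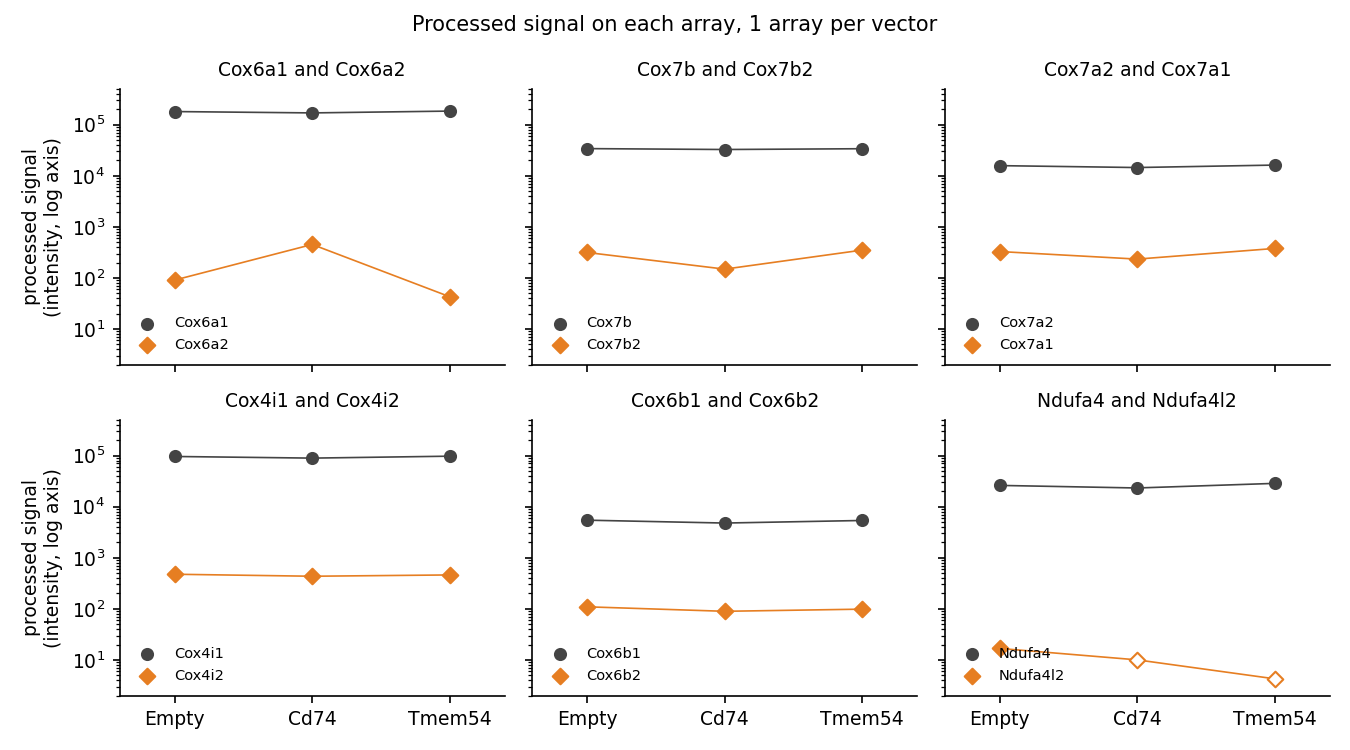
Processed signal (intensity, log axis) on the Empty, Cd74 and Tmem54 arrays for 6 pairs of a widely expressed form (circles) and a tissue form (diamonds), 1 array per vector; open symbols are not well above background. The circles are level, while Cox6a2 runs 91.09, 453.6 and 43.02 and Cox7b2 315.7, 149.1 and 351.6; heights of different probes are not comparable.

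Markers of skeletal and heart muscle differed in both directions. Of 21 markers, 12 were above background on at least 1 array, and Ckm, Ckmt2, Mb, Myod1, Myog, Mef2c, Actn2, Myh1 and Myl2 on none. The number above background was 9 with Empty, 9 with Cd74 and 10 with Tmem54. With Cd74, 3 of the 11 compared were above 0 and 8 below, with a median of -0.209. By values and bounds 0 were at least 2-fold higher, though a bound leaves a larger difference possible. The 3 above 0 were Acta1 at a bound of 0.88, Myh6 at a bound of 0.64 and Myh4 at 0.31, with Myh4 at -0.43 with Tmem54. Acta1 was above background only on the Cd74 array, at 22.97. The 2 at least 2-fold lower were Tnnt2 at -1.04 and Myh2 at a bound of -1.67. The summed signal of the list was 4135, 2299 and 4741, most of it Tnnt2 at 3102, 1439 and 3754.

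Of 9 testis germ cell markers, 6 were above background, and Ddx4, Dazl and Ldhc were not. Their summed signal was 478.5 with Empty, 551.7 with Cd74 and 593.7 with Tmem54. With Cd74, 4 of the 6 were above 0 and 2 below. Tnp1 was at 1.82 with Cd74 and 1.56 with Tmem54, and Pgk2 at 1.36 and 0.70. Their signals with Empty were dim, at 46.42 and 15.93. Prm1, at 293.0 with Empty, was at -0.31 and 0.07, and Acr was at a bound of -0.29 with Cd74. Cox7b2 was at -1.02 and 0.14. Of 5 brown fat markers, Ppargc1a alone was above background, at -0.13 and 0.01. The part of other cell types in the isoform values was not tested beyond these levels, and in bulk RNA fewer cells of a type and less RNA per cell cannot be told apart.

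Genes beside Cox6a2 were read for comparison. In assembly GRCm38.p6 the gene lies at chr7:128205435-128206366 and shares 70 bases with Itgad, an integrin gene. Itgad was not above background on any array, with signals of 2.763, 2.898 and 3.044, and neither was Gm39091. The brighter probe of the noncoding 4931431B13Rik was at -0.21 with Cd74 and 0.05 with Tmem54. A second, nearer probe had signals of 10.95, 17.82 and 14.42 and was above background only with Cd74. On the other side, 9130023H24Rik was at 0.28 with Cd74, Armc5 at -0.03 and Tgfb1i1 at -0.23. On build mm9, both Itgad probes lie on the opposite strand from the Cox6a2 probe, at offsets of -583 and -259 bases.

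The value of a gene rests on its brightest probe, and 36 members had further probes measured. The median gap between the highest and lowest probe of a gene was 0.12 in Cd74 minus Empty, with 28 of 36 under 0.2, and 0.06 in Tmem54 minus Empty, with 32 of 36 under 0.2. The widest was Ndufs1 at 0.75 with Cd74. Its bright probe, at a signal of 17610 with Empty, was at -0.09, and a dim one at 44.56 was at -0.84. For Ndufa13 a second probe of 1144 with Empty was at 0.40 with Cd74, where the bright probe of 57160 was at -0.07.

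**Figure D4:**
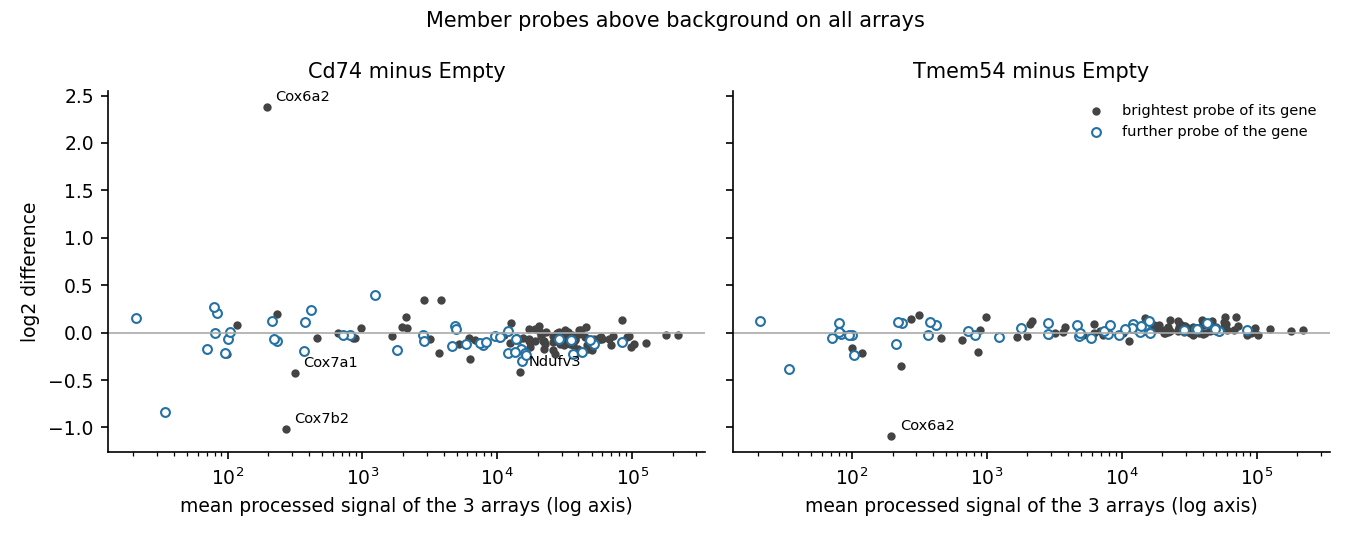
Log2 difference (vertical axis) against the mean processed signal of the 3 arrays (log axis) for the 142 member probes above background on all arrays, 97 of them the brightest of their gene (filled) and 45 further probes (open). Bright probes lie close to 0 and the wide differences, Cox6a2 at 2.38 and Cox7b2 at -1.02 with Cd74, lie among dim probes.

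With Cd74, the assembly factors caught by the name stems did not share the offset of the subunits, and the groups were not matched by brightness. The 8 complex I factors (Ndufaf names) had a median of 0.026 with Cd74 and 0.012 with Tmem54, where complex IV was at 0.013. Ndufaf1, a chaperone of the membrane arm, was highest with Cd74 at 0.34, from signals of 3496 with Empty, 4218 with Cd74 and 3679 with Tmem54, and Ndufaf7, a methyltransferase, followed at 0.17. Ndufaf2 and Ndufaf8 were lowest at -0.06 each. With Tmem54 they lay between -0.08 for Ndufaf3 and 0.16 for Ndufaf5.

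The 4 complex II factors had medians of -0.005 with Cd74 and -0.102 with Tmem54. Sdhaf3, which helps to mature the iron-sulfur subunit, had signals of 239.7, 263.2 and 189.6, or 0.20 with Cd74, -0.35 with Tmem54 and 0.55 between Cd74 and Tmem54. Sdhaf2, which inserts the flavin cofactor, was at -0.06 and -0.20. A second Sdhaf2 probe had the opposite sign, at 0.11 in both comparisons with Empty. Atp5sl, listed by RefSeq as Dmac2 and linked to complex I assembly, was at 0.34 with Cd74 and -0.02 with Tmem54. Atp5s, listed as Dmac2l, was at 0.08 and -0.21. Atp5c1-ps is a pseudogene of Atp5c1, whose probe could also read Atp5c1 transcripts, and was at -0.28 and 0.09, the same signs as Atp5c1.

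Of a list of 37 other assembly factors, 0 reached 2-fold against Empty in either comparison, with medians of -0.015 and 0.014. That count takes Lyrm7 with Cd74 at a bound of -0.66. Lyrm7, a chaperone of the Rieske protein, was the 1 gene past 2-fold between Cd74 and Tmem54, at a bound of -1.22 from signals of 22.82, 13.80 and 33.93. Sco2, a copper carrier for complex IV, was highest with Cd74 at 0.26.

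Taken over all 11 on the array, the subunits encoded by mitochondrial DNA did not follow the nuclear ones as a group. Of the 11 on the array, 6 were below 0 with Cd74 and the median was -0.006; with Tmem54, 8 were below 0 and the median was -0.048, a sign opposite to the nuclear subunits. The complex I genes ND1, ND2, ND4, ND4L and ND5 lay between -0.25 and -0.19 with Cd74. ND3 was at 0.03, CYTB of complex III at -0.01, ATP8 of complex V at 0.01 and COX2 at 0.07. COX1, the catalytic subunit of complex IV, had signals of 26560, 28310 and 23250, or 0.16 with Cd74 and -0.20 with Tmem54. ND6, encoded on the opposite strand from the others, was highest with Cd74 at 0.31, from signals of 538.5, 638.4 and 531.4.

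The array files place 7 of these probes on the mitochondrial chromosome and 4, those of ATP8, COX2, ND3 and ND4L, on chromosome 1 between positions 24619243 and 24621798 of mm9. These 4 cannot be told apart from a nuclear copy by position, and the medians above include them. Of the 7 on the mitochondrial chromosome, ND1, ND2, ND4 and ND5 were between -0.25 and -0.20 with Cd74. CYTB was at -0.01 there, and COX1 and ND6 were at 0.16 and 0.31. The median with Cd74 thus rests in part on the 4 probes placed on chromosome 1. With Tmem54 the 7 lay between -0.20 for COX1 and 0.02 for ND1.

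Regulators of mitochondrial biogenesis were mostly slightly higher with Cd74. Of 20 measured, 15 were above 0 with Cd74, with a median of 0.091, against 52.3% and 0.012 over all genes. With Tmem54, 9 were above 0, with a median of -0.02, against 49.0% and -0.002. In these comparisons with Empty, 0 reached 2-fold. That count takes Esrrg at bounds of -0.31 and -0.3. The 6 highest were as follows. Mterf1a, a transcription termination factor, was at 0.46, Twnk, the replicative helicase, at 0.42, Polg2, the accessory polymerase subunit, at 0.35 and Ssbp1, the single-strand binding protein, at 0.30, ahead of the coactivators Ppargc1b at 0.27 and Pprc1 at 0.25. Twnk had signals of 551.9, 706.3 and 548.1. The related coactivator Ppargc1a was at -0.13, and the factors whose motifs mark many respiratory promoters were near 0, with Nrf1 at -0.02, Gabpa at -0.08 and Yy1 at 0.04.

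Enzymes of the tricarboxylic acid cycle and pyruvate dehydrogenase had signs like those of the subunits. Of 18, 13 were below 0 with Cd74, with a median of -0.086, and 14 above 0 with Tmem54, with a median of 0.048. Over all genes, 47.6% were below 0 with Cd74 and 49.0% above 0 with Tmem54. Suclg2 was lowest with Cd74 at -0.31, followed by Idh2 at -0.25, and Ogdh and Suclg1 were at -0.23 each. Of the 12 uncoupling, carrier and electron-entry genes measured, 8 were below 0 with Cd74, with a median of -0.113, and 10 above 0 with Tmem54. The ADP/ATP carriers Slc25a5 and Slc25a4, which exchange the product of complex V across the inner membrane, were at -0.29 and -0.28, and the outer membrane channel Vdac1 at -0.20. Ucp1, Ucp2 and Ucp3 were not above background on any array. Neither list had a 2-fold gene against Empty (0 genes).

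Promoters were compared because the ubiquitous members had similar small differences and several tissue forms did not. The tissue forms had dim probes, dim genes spread more on these arrays, and the groups were not matched by brightness. RefSeq promoters of assembly GRCm38.p6, 250 bases before to 50 bases after a start, were found for 82 of the 100 members. Motifs were searched on both strands, the core of the NRF1 consensus, CCGGAAG for GABPA and ATGGCGG for YY1. None of these motifs contains another. In the windows below, capitals mark the matches. The Cox6a1 window is chr5:115348909-115349208 on the minus strand and holds 1 NRF1 match and 1 GABPA match, read there as its reverse complement. The Cox7b2 window is chr5:71548156-71548455 on the minus strand and the Cox7a1 window chr7:30183921-30184220 on the plus strand, and both hold 0 matches.
Cox6a1: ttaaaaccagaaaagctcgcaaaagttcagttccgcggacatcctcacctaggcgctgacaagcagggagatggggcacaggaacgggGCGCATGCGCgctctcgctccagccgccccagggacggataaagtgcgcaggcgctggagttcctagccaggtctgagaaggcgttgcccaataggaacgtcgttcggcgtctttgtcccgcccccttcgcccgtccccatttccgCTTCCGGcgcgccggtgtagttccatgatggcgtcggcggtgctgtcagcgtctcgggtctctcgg
Cox7b2: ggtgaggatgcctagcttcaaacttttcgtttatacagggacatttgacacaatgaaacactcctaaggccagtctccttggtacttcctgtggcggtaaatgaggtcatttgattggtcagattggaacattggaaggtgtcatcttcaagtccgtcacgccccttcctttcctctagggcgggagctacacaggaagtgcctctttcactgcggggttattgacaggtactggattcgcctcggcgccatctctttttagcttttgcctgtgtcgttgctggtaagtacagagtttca
Cox7a1: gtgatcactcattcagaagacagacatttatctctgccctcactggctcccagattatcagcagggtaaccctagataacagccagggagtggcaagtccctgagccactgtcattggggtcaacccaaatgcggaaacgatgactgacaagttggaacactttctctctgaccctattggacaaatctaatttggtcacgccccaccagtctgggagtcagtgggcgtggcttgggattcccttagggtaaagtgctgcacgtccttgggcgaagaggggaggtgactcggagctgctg

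The promoters of the ubiquitous subunits held these letters more often than promoters at large. Of 70 promoters of subunits other than tissue isoforms, 14.3% held an NRF1 match, 22.9% a GABPA match, 15.7% a YY1 match and 47.1% any of them. Over all 32851 promoters of the table the shares were 2.27%, 8.86%, 4.05% and 13.7%. The median ratio of observed to expected CpG was 0.825 for the subunits and 0.384 for all promoters. Of the tissue isoforms, Cox6b2, Cox7a1, Cox7b2 and Cox8b had an entry, with 0 of 4 promoters holding a match and a median CpG ratio of 0.382. Cox6a2, the tissue form with the widest difference, had no entry. Of the 4, Cox8b was above background on no array and Cox6b2 differed little, at -0.23 with Cd74 and -0.16 with Tmem54. The shares are a description, since a match is not a binding site.

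The offset was set beside the motifs as a description. The median in Cd74 minus Empty was -0.055 for the 10 subunits with an NRF1 match and -0.07 for the 55 without. With a YY1 match it was -0.035 for 10 subunits and without one -0.07 for 55. For GABPA it was -0.07 with a match (16 subunits) and -0.07 without (49 subunits). With any motif it was -0.06 for 32 subunits and without one -0.08 for 33. In Tmem54 minus Empty the medians were 0.03 with and 0.05 without any motif.

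**Figure D5:**
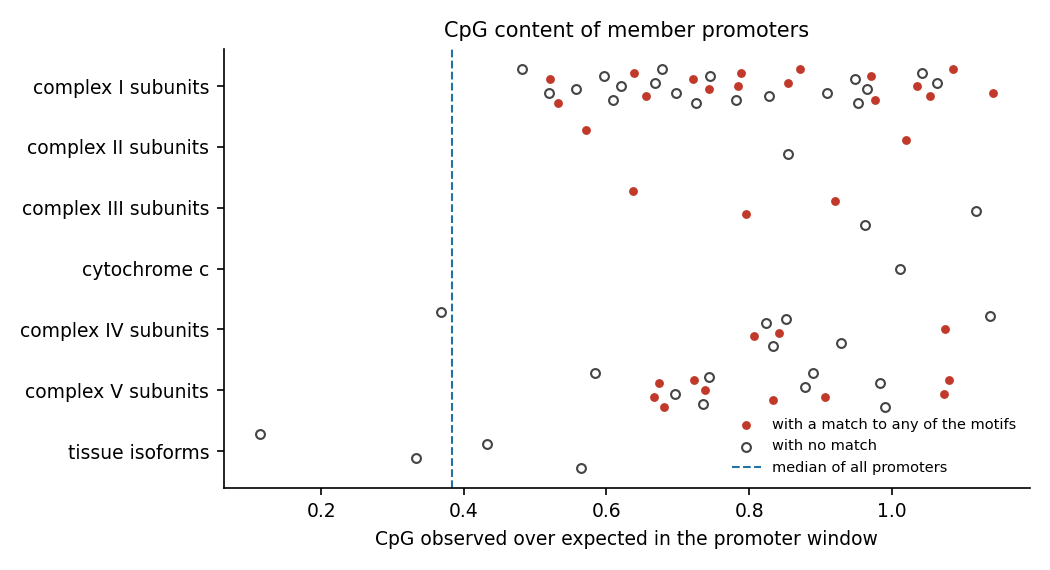
Ratio of observed to expected CpG in the 300-base promoter windows of members, by complex, with the tissue isoforms apart. Each point is a promoter, filled where it holds a match to any of the motifs, and the dashed line is the median of all promoters, 0.384; the 4 tissue isoform promoters lie between 0.115 and 0.564 and hold no match.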

How the data were processed

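Per the submitters' processing notes, spots were quantified with Agilent Feature Extraction, version 12.0.3.1. The deposited values used are processed signals, a linear intensity that the software had corrected for background and spatial trends, per the file headers. The multiplicative term of the software's error model was set to 0.1. The authors' value table holds the same intensity divided by 1 constant per array. How the probes were placed on mm9 is not given in the sources used here.

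From these, log2 of the processed signal minus its array's 75th percentile over spots other than controls was computed, with outlier spots left out and replicate spots averaged. A gene took its brightest probe among those well above background on at least 1 array. A probe not well above background on 1 array of a comparison gave a bound. Symbols and promoters came from RefSeq, assembly GRCm38.p6, and all 100 members matched, 3 of them by synonym. No test was run. Named genes were those at least 2-fold apart, the isoform sets, the 2 highest and 2 lowest per complex and comparison, the neighbours of Cox6a2 (3 on each side) and Cd74, Tmem54 and Trib3. Other genes are named from the lists or after their values were seen, and the values of some genes are not reported here. The members, lists and alternatives were chosen with earlier results of these data known. Scripts (Python 3.11.15, pandas 2.3.3, limma 3.58.1 for normexp) were tested on simulated data.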

Additional observations from a re-analysis of the deposited data

How the results depend on the processing

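Over 9 alternative settings (8 planned and quantile normalization, added after seeing the data), 202 of 216 results that answer a comparison and 550 of 557 values of single genes moved by less than the model error or, for counts, by less than 1.5 times, and 0 of the values past 2-fold changed sign. The median model error of 0.20 exceeds the medians given above for complexes I to V, so this tally cannot tell whether those medians hold. Small differences did change sign, such as Ndufv3 with Tmem54, from -0.03 to 0.17, and Cycs with Tmem54, from -0.02 to 0.08. The counts of 2-fold members that moved were as follows, and those of isoforms alone were the same. Normexp with an offset of 50 gave 1 in Cd74 minus Empty, 0 in Tmem54 minus Empty and 1 in Cd74 minus Tmem54. The next-brightest probe, which 37 or 38 members have, gave 0 in each comparison, and Cox6a2 and Cox7b2 have none. Without a filter on dim probes, 2 members were past 2-fold in Tmem54 minus Empty, with Ndufa4l2 at -1.99. With normexp Cox6a2 was at 1.82, -0.56 and 2.38 in the order of comparisons above, and Cox7b2 at -0.80 and -0.90 against Empty and Tmem54 on the Cd74 array. The median of complex IV with Cd74 ranged from -0.068 to 0.016, the last from 1 gene with a next-brightest probe. For the other classes, medians kept their sign under these settings, apart from complex III with Tmem54, at 0.0 under quantile normalization.

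Counts over all genes also moved. In Cd74 minus Empty the genes past 2-fold numbered 161 above and 217 below, against 58 and 60 with normexp, 27 and 39 among bright genes, 49 and 50 with the next-brightest probe and 751 and 854 without a filter. In Tmem54 minus Empty the counts were 82 and 125, against 33 and 34, 5 and 18, 29 and 37, and 511 and 836. In Cd74 minus Tmem54 they were 253 and 260, against 94 and 103, 60 and 74, 63 and 66, and 946 and 752. Other centrings shifted every difference by -0.018 to 0.015 against Empty. No paired analysis was possible because each vector has 1 array. Signal over background limits Ndufa4l2, Cox8b and Cox8c, and with 1 array per vector none of the differences has a replicate.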

Other observations

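Genes of the mitochondrial and integrated stress responses differed more with Cd74 than any class of respiratory subunits, though none reached 2-fold (0 of 10). The median of the 10 measured was 0.343 in Cd74 minus Empty and -0.006 in Tmem54 minus Empty. With Cd74, 7 of 10 were above 0, against 52.3% of all genes. Ddit3, a stress-induced transcription factor, had signals of 1046 with Empty, 1855 with Cd74 and 1018 with Tmem54, or 0.89 with Cd74. Atf5, a regulator of the mitochondrial unfolded protein response, was at 0.82, Gdf15, a secreted stress cytokine, at 0.68, Lonp1, a protease of the mitochondrial matrix, at 0.52, Atf4 at 0.46 and the protease subunit Clpp at 0.23. The matrix chaperones Hspd1 and Hspe1 were at -0.12 and -0.03, and Fgf21 was not above background on any array. Trib3, a target of Atf4 and Ddit3, was at 1.61 with Cd74 and -0.35 with Tmem54.

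Glycolytic enzymes and hypoxia targets split. The median of 18 was -0.05 with Cd74 and 0.003 with Tmem54, with 11 below 0 with Cd74. Among enzymes, Pfkl was at -0.30, Pkm at -0.16, Gapdh at -0.10, and Ldha and Pgk1 at 0.0 with Cd74. Among hypoxia targets, Ndrg1 was at 0.67 and Vegfa at 0.43, while Egln3 was at -0.38 and Cox4i2 at -0.06. With Tmem54, Car9 was at -0.46 from signals of 51.75 with Empty and 37.96 with Tmem54.

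Markers of 2 further cell types were also read. Of the macrophage list 4 genes were above background, with summed signals of 11080 with Empty, 10080 with Cd74 and 10940 with Tmem54. With Cd74, Cd68 was at 0.52, Csf1r at -0.21, Ptprc at -0.20 and Itgam at -0.06. Of 7 fibroblast and stellate markers 6 were above background, with a median of -0.401 with Cd74 and 0.227 with Tmem54, and Col1a1 was at -0.76 and 0.31. Dcn, the brightest of them, was at 0.22 with Cd74 and -0.26 with Tmem54, and the summed signal of the list was 90700 with Empty, 91830 with Cd74 and 82370 with Tmem54.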
